A study of Mus musculus with 9 samples.

Results

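The genes described here are 10 that carry or report canonical WNT signalling, taken by symbol from a table of 22322 mouse genes. They are Ctnnb1, the TCF/LEF factor genes Tcf7l1, Tcf7, Lef1 and Tcf7l2, and the feedback and target genes Axin2, Notum, Nkd1, Rnf43 and Sp5. Each symbol matched 1 row, and all 10 genes passed the filter on low counts. Their RNA was measured by RNA-seq in mouse R1 embryonic stem cells, labelled WT, that had been kept 6 days in suspension without the cytokine LIF to form embryoid bodies, aggregates in which stem cells begin to differentiate. The 3 groups of 3 libraries are named for their hairpins: sh-ctrl is the control, sh-Pfkp targets Pfkp and sh-Lin41 targets Lin41. Pfkp encodes a phosphofructokinase of glycolysis. Lin41 is the older name of Trim71, whose product binds RNA in stem cells. Each target is represented by 1 hairpin label, and the labels name neither a rescue nor whether a line was a clone or a pool.

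Canonical WNT signalling acts through beta-catenin, the product of Ctnnb1. Without a WNT signal a destruction complex built on axin marks beta-catenin for degradation, and with a signal beta-catenin accumulates and joins TCF/LEF factors on DNA. In mouse embryonic stem cells TCF7L1 is known mainly as a repressor of pluripotency genes, and TCF7 and LEF1 as partners of beta-catenin in activation. Axin2, Nkd1, Notum, Rnf43 and Sp5 are widely used as target genes of the pathway, and their products feed back on it at different steps. RNA levels do not show the protein level or the location of beta-catenin.

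TCF/LEF factors bind a short core whose letters are CTTTGA or CTTTGT, so the 250 bases before each annotated start were read for these on both strands (TCAAAG and ACAAAG on the other strand). Promoters of 9 members were in the RefSeq table of build GRCm38.p6, with 16 windows, and Notum was not among them. The windows of Ctnnb1 overlap each other, as do those of Lef1 starts 1 and 2. Of the 16 windows 4 held a core. Over 32851 windows of all genes CTTTGA was found in 13.8%, CTTTGT in 16.5%, either of them in 27.6%, and 3 or more cores in 0.776%. The share of member windows with a core was thus not above that of all windows. Windows with several cores were those of Sp5, a target gene, and of the fourth start of Lef1. They are shown with the windows of the first Lef1 start and of Axin2, a widely used target gene, neither of which holds these letters. Capitals mark the core on either strand, and each sequence runs 5′ to 3′ on the strand of the gene, which is the plus strand for all of them. The Sp5 window is chr2:70474673-70474922, the Lef1 windows are chr3:131110047-131110296 and chr3:131156044-131156293, and the Axin2 window is chr11:108920099-108920348.
Sp5: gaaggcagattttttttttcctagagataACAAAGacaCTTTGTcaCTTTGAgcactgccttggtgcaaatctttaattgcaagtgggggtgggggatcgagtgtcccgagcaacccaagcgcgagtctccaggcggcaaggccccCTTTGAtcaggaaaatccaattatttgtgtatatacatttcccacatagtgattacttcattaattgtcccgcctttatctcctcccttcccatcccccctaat
Lef1, start 1: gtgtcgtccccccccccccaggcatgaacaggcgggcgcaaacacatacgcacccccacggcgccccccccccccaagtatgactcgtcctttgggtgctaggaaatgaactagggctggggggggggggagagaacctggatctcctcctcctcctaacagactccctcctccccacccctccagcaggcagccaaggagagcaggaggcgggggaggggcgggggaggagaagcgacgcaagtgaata
Lef1, start 4: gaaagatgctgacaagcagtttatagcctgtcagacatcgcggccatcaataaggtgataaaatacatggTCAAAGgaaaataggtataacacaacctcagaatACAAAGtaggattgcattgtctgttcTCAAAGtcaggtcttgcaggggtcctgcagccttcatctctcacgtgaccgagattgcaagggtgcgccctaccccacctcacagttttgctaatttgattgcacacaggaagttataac
Axin2: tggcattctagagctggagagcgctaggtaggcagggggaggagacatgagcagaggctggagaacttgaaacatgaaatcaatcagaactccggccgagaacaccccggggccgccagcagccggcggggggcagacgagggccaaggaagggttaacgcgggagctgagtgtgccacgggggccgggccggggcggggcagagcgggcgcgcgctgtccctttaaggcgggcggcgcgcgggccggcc
In the Sp5 window 3 of its 4 cores lay between 221 and 199 bases before the start and the other at 104 to 99 bases. The Lef1 cores began 180, 146 and 120 bases before the fourth start. Tcf7l1 had 1 core, CTTTGT, at 28 to 23 bases before its start, and Tcf7l2 had 1 CTTTGT before the second of its starts. A match of letters does not show binding, and which Lef1 start these cells used was not measured.

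Libraries held 15495194 to 20607683 counts. The targeted genes were lower in their own group: Pfkp had a mean of 103 CPM (counts scaled to the TMM-adjusted library size) in sh-Pfkp against 247 CPM for the controls, and Trim71 had 160 CPM in sh-Lin41 against 269 CPM. Each also differed in the other knockdown. Trim71 was higher in sh-Pfkp, at 352 CPM (log2 fold change 0.39, SE 0.0238), and Pfkp was lower in sh-Lin41, at 227 CPM (-0.12, SE 0.0244). All 8 pluripotency markers had at least 10 CPM in sh-ctrl, and their summed level was 4774 to 4858 CPM for sh-ctrl, 4344 to 4427 CPM for sh-Pfkp and 5542 to 5575 CPM for sh-Lin41. Its members went both ways: in sh-Pfkp 3 rose, among them Zfp42 (420 to 558 CPM), and 5 fell, among them Tdgf1 (984 to 551 CPM), and in sh-Lin41 5 rose and 2 fell. Of 8 primitive streak and mesoderm markers 7 were under 1 CPM in sh-ctrl, and the sum of the 8 was 16.8 to 18.0 CPM there, 13.9 to 14.5 CPM in sh-Pfkp and 11.5 to 11.8 CPM in sh-Lin41. Most of that sum was Eomes, which fell in both knockdowns, while Evx1 rose in sh-Pfkp from 0.558 to 2.39 CPM. The summed fibroblast or mesenchyme markers reached 242 to 247 CPM in sh-ctrl, 299.6 to 317 CPM in sh-Pfkp and 283 to 296.5 CPM in sh-Lin41, where Vim was most of the sum. Of 8 tested markers of that list 5 rose and 2 fell in sh-Pfkp, and 3 rose and 1 fell in sh-Lin41. Beside the marker counts, 28.3% of all genes tested rose and 28.3% fell in sh-Pfkp, and 26.9% and 27.3% in sh-Lin41. The collagen gene Col1a2 had 1 count in the sh-ctrl group against 103, 94 and 86 counts in the sh-Pfkp libraries and 6, 2 and 2 in sh-Lin41, whereas in sh-Pfkp Pdgfrb fell (log2 fold change -1.68, SE 0.147), Thy1 fell (-0.996, SE 0.188) and Twist1 had 0.02 (SE 0.198). The part of these marker levels in the values of the WNT genes was not tested, and fewer cells of a type and less RNA per cell cannot be told apart in such libraries.

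In the sh-Pfkp group the TCF/LEF genes Lef1 and Tcf7l1 and the WNT-inactivating enzyme gene Notum rose, while Tcf7, Nkd1 and Sp5 fell. In the sh-Lin41 group Lef1, Notum and Tcf7l2 rose, and Tcf7 and Ctnnb1 fell, the last to 0.967 of control. Support under alternative settings of the fit differed. In sh-Pfkp the Sp5 call held under 13 of 19 and the Nkd1 call under 21 of 22. In sh-Lin41 the Tcf7l2 call held under 15 of 22 and the Ctnnb1 call under 17 of 22. The other calls named here held under all 22. Against sh-ctrl, 6 of the 10 members passed the test in sh-Pfkp (edgeR's quasi-likelihood test, Benjamini-Hochberg adjusted p under 0.05, no minimum fold), where 56.6% of the 13158 genes tested did. In sh-Lin41 5 members passed, where 54.3% of all genes did. Between sh-Pfkp and sh-Lin41 5 members passed, where 55.1% of all genes did. The share of members that passed was therefore near that of all genes, and the number that changed is not a property of these 10. Libraries of the groups compared did not overlap in CPM for 6 members in sh-Pfkp, 6 in sh-Lin41 and 7 between the knockdowns, beside 61.0%, 59.0% and 59.8% of all genes tested. The median log2 fold change of the members was -0.15, -0.10 and -0.05 in these comparisons, and that of all genes was -0.005, 0.0043 and -0.013. Both knockdowns were compared with the same 3 sh-ctrl libraries, so their values stand side by side and only the direct comparison tests how they differ.

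**Figure D1:**
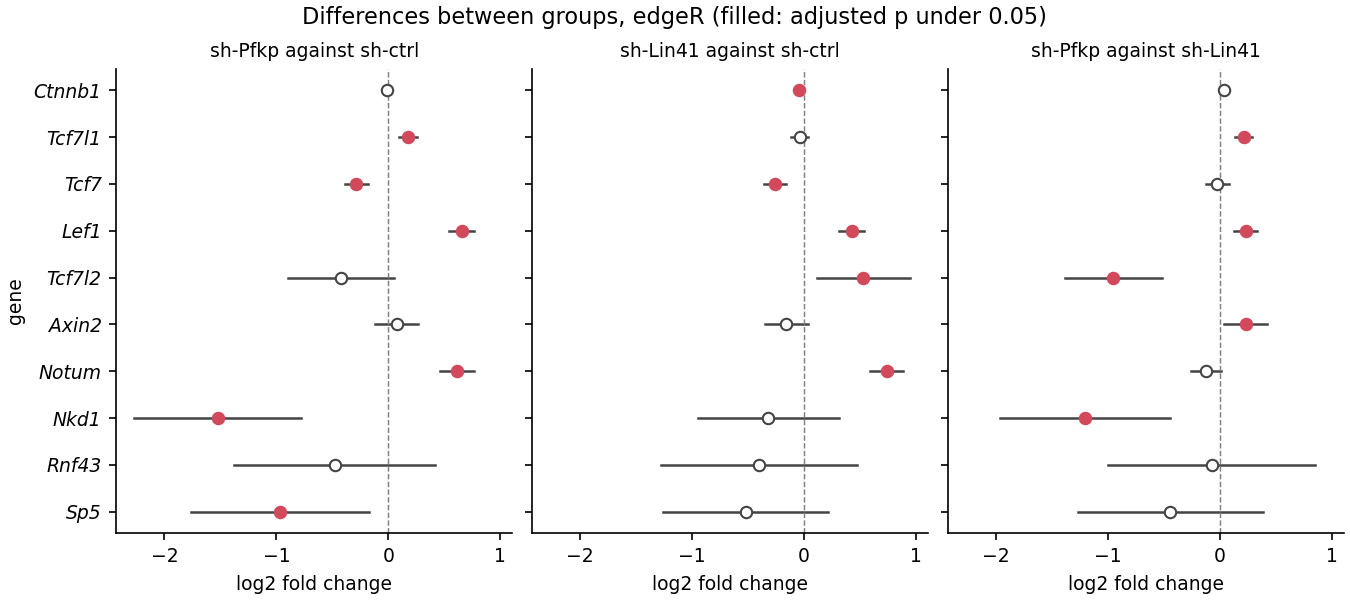
Log2 fold change of each of the 10 genes in the 3 comparisons, from edgeR. Points are the estimates, lines the 95% intervals, filled points have an adjusted p under 0.05, and the dashed line marks no difference; Lef1 and Notum lie right of it and Tcf7 left of it in both comparisons with sh-ctrl, and the intervals of Nkd1, Rnf43 and Sp5 are the widest.

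Levels of the 10 genes spanned about 3 orders of magnitude on the FPKM scale, which divides by transcript length and so allows genes to be compared. In sh-ctrl Ctnnb1 stood first at 193 ± 2.84 FPKM (SD, n = 3). The TCF/LEF genes Tcf7l1 (25.5 ± 1.14 FPKM), Tcf7 (19.4 ± 0.572) and Lef1 (8.16 ± 0.514) came next, followed by Notum (7.50 ± 0.342) and Axin2 (3.00 ± 0.0702). Tcf7l2 (0.783 ± 0.172), Nkd1 (0.693 ± 0.166), Sp5 (0.467 ± 0.165) and Rnf43 (0.187 ± 0.11) were all under 1 FPKM. Neighbours whose libraries overlapped in sh-ctrl were Lef1 and Notum, Tcf7l2 and Nkd1, and Nkd1 and Sp5. The order was the same in sh-Pfkp, where the libraries of Lef1 and Notum no longer overlapped and those of the 4 lowest genes overlapped with their neighbours. In sh-Lin41 Notum (12.4 ± 0.652 FPKM) stood above Lef1 (10.95 ± 0.195 FPKM), with no overlap between any neighbours.

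**Figure D2:**
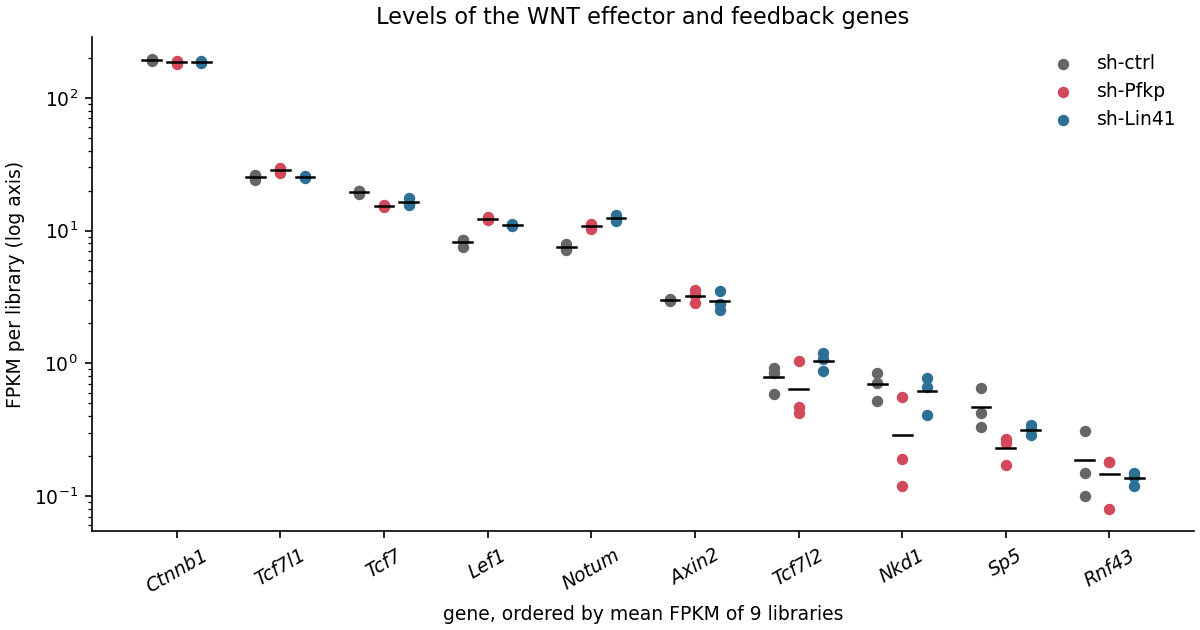
FPKM of each gene in every library on a log axis, with genes ordered by their mean over the 9 libraries. Points are libraries, coloured by group, and bars are group means; Ctnnb1 is near 190 FPKM in all groups, and the spread between libraries is widest for the genes under 1 FPKM.

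Ctnnb1 (ENSMUSG00000006932), the gene of beta-catenin, was nearly level across the groups. The sh-ctrl libraries gave 672.6, 679.7 and 681.2 CPM, the sh-Pfkp libraries 680.4, 661 and 671.9, and the sh-Lin41 libraries 642.4, 664.5 and 659.3. Every sh-Lin41 library lay below every sh-ctrl library, and sh-Pfkp overlapped with both. The log2 fold change in sh-Pfkp was -0.01 (SE 0.0182, edgeR adjusted p = 0.515, n = 3 per group), with a 95% interval of -0.0515 to 0.0226. In sh-Lin41 it was -0.05 (SE 0.0181, edgeR adjusted p = 0.0241). That call was lost when sh-ctrl replicate 3 (0.0786) or sh-Lin41 replicate 1 (0.157) was left out and on the FPKM scale (0.12 to 0.159), and in sh-Pfkp a call appeared when library totals (log2 fold change -0.06, adjusted p = 0.00372) or upper quartile scaling (-0.05, 0.0103) replaced TMM. Between the knockdowns the difference was 0.03 (SE 0.0181, adjusted p = 0.11), which changed sign with library totals (-0.01) and passed the test with RLE size factors (0.0475) or when replicate 2 of sh-Pfkp (0.0244) or of sh-Lin41 (0.0434) was left out.

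Tcf7l1 (ENSMUSG00000055799) encodes the factor known as a repressor of the pluripotency network and was the most abundant TCF/LEF gene. Its level was 68.3, 70.2 and 66.1 CPM for sh-ctrl, 77.5, 74.3 and 78.9 CPM for sh-Pfkp and 65.9, 67 and 65.7 CPM for sh-Lin41. The sh-Pfkp libraries stood above the other 6, which overlapped with each other. Tcf7l1 rose in sh-Pfkp by 1.13-fold (log2 fold change 0.17, SE 0.0382, edgeR adjusted p = 0.000241), and sh-Pfkp exceeded sh-Lin41 by 0.21 (SE 0.0375, adjusted p = 1.19e-05). In sh-Lin41 the difference from sh-ctrl was -0.04, with a 95% interval of -0.119 to 0.0385.

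Tcf7 (ENSMUSG00000000782), which encodes the factor TCF1, was lower in both knockdowns. CPM values were 43.9, 45 and 44.6 in sh-ctrl, 37.3, 36.4 and 35.8 in sh-Pfkp and 35.4, 36.9 and 39 in sh-Lin41. All 6 knockdown libraries lay below all control libraries. Tcf7 fell to 0.82 of control in sh-Pfkp (log2 fold change -0.29, SE 0.049, edgeR adjusted p = 9.52e-06) and to 0.834 in sh-Lin41 (-0.26, SE 0.0485, adjusted p = 2.88e-05). The knockdowns differed from each other by -0.02, with a 95% interval of -0.124 to 0.0777 (adjusted p = 0.711).

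Lef1 (ENSMUSG00000027985) encodes a beta-catenin partner and is itself described as a WNT target gene. It rose in both groups, and more in sh-Pfkp. The sh-ctrl libraries had 24.8, 27.8 and 27.3 CPM, the sh-Pfkp libraries 43.1, 41.3 and 41.4 CPM and the sh-Lin41 libraries 36, 35.1 and 36.1 CPM. None of the groups overlapped, and the order was sh-Pfkp, sh-Lin41, sh-ctrl. The rise was 1.58-fold in sh-Pfkp (log2 fold change 0.66, SE 0.0538, edgeR adjusted p = 5.12e-12) and 1.34-fold in sh-Lin41 (0.43, SE 0.0548, adjusted p = 7.28e-08). The direct comparison gave 0.23 (SE 0.05, adjusted p = 0.000217). The 3 calls held under all 22 alternatives, which do not include a 2-fold minimum.

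Tcf7l2 (ENSMUSG00000024985), the gene of TCF4, was the scarcest of the family, with 109 reads in the sh-ctrl group, 88 in sh-Pfkp and 180 in sh-Lin41. CPM values were 2.52, 2.05 and 1.8 in sh-ctrl, 1.32, 1.95 and 1.45 in sh-Pfkp and 3.47, 2.8 and 2.92 in sh-Lin41. The sh-Lin41 libraries were the 3 highest, and sh-Pfkp overlapped with sh-ctrl. Tcf7l2 rose in sh-Lin41 by 0.53 on the log2 scale (SE 0.205, edgeR adjusted p = 0.0292), a call lost when sh-ctrl replicate 2 (0.0739), sh-ctrl replicate 3 (0.137) or sh-Lin41 replicate 1 (0.133) was left out, with DESeq2 (0.119) and on the FPKM scale (0.257 to 0.34). In sh-Pfkp the log2 fold change was -0.42 (95% interval -0.895 to 0.0477, adjusted p = 0.119). Sh-Pfkp was lower than sh-Lin41 by a log2 fold change of -0.95 (SE 0.213, adjusted p = 0.000308), which was lost on the FPKM scale alone (0.0678 to 0.108). There sh-Pfkp replicate 2 had 1.04 FPKM against 0.88 FPKM in sh-Lin41 replicate 2, while the CPM of the groups did not overlap.

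The 4 factors together had a summed FPKM of 53.9 ± 1.40 in sh-ctrl, 57.2 ± 1.07 in sh-Pfkp and 53.7 ± 1.46 in sh-Lin41 (SD, n = 3). Lef1 made up 14.2%, 15.2% and 16% of that sum in the sh-ctrl libraries, 21.9%, 21.8% and 21% in sh-Pfkp and 20.5%, 20.5% and 20.2% in sh-Lin41. Tcf7 made up 35.3%, 35.6% and 37.2% in sh-ctrl, 26.9%, 27.5% and 26.4% in sh-Pfkp and 29.4%, 30.1% and 31.9% in sh-Lin41. In both knockdowns the Lef1 share was thus higher and the Tcf7 share lower than in every control library. Tcf7l1 remained near the middle of the sum in all libraries, at 45.7% to 51.8%, and Tcf7l2 held 0.724% to 2.25%. The shares of a library add to a whole and so depend on one another, and no separate test was made on them.

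**Figure D3:**
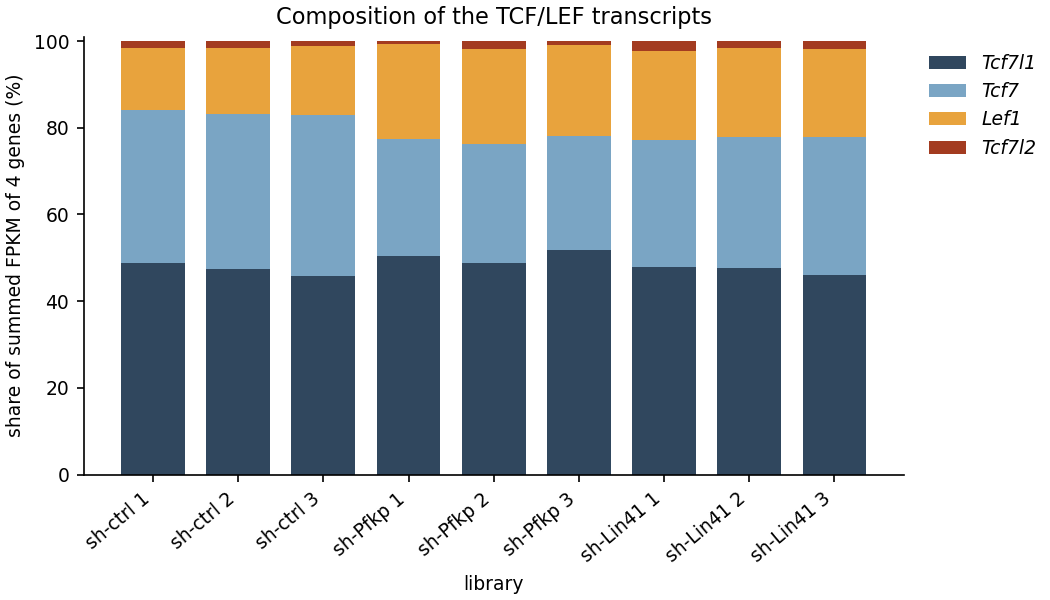
Share of each TCF/LEF gene in the summed FPKM of the 4 genes, 1 bar per library. The Lef1 segment widens from 14.2% to 16% in sh-ctrl to 20.2% or more in the knockdown libraries, while the Tcf7 segment narrows from 35.3% or more to at most 31.9%.

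Among the feedback genes Axin2 (ENSMUSG00000000142), which encodes a scaffold of the destruction complex, did not pass the test against control in either knockdown. Control libraries had 11.2, 10.7 and 10.3 CPM, those of sh-Pfkp 11.5, 11.2 and 11.2 CPM, and those of sh-Lin41 9.04, 10.1 and 9.74 CPM. The sh-Lin41 libraries lay just below the sh-ctrl libraries, and sh-Pfkp overlapped with sh-ctrl. The log2 fold change was 0.07 in sh-Pfkp (95% interval -0.119 to 0.266, edgeR adjusted p = 0.526) and -0.16 in sh-Lin41 (-0.353 to 0.0382, adjusted p = 0.168). Between the knockdowns it was 0.23 (SE 0.094, adjusted p = 0.0377), a call that held under 10 of 22 alternatives. It was lost without any one of the 3 sh-Pfkp libraries or of sh-Lin41 replicates 1 and 3 (adjusted p = 0.0512 to 0.138), with library totals (0.0955), upper quartile scaling (0.0807) or no filter on low counts (0.0618), with DESeq2 (0.121) and on the FPKM scale (0.429 to 0.533).

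Notum (ENSMUSG00000042988), the gene of a secreted enzyme that removes the lipid from WNT ligands, rose in both groups. The control libraries had 15.1, 14.1 and 13.5 CPM, the sh-Pfkp libraries 20.1, 22.4 and 23 CPM and the sh-Lin41 libraries 24, 23.6 and 23.7 CPM. Both knockdowns stood clear of control, and the sh-Lin41 libraries lay just above the sh-Pfkp libraries. Notum rose 1.53-fold in sh-Pfkp (log2 fold change 0.62, SE 0.0745, edgeR adjusted p = 2.19e-08) and 1.67-fold in sh-Lin41 (0.74, SE 0.073, adjusted p = 3.19e-10). The difference between the knockdowns was -0.12 (adjusted p = 0.12), and passed the test with library totals (0.0324), upper quartile scaling (0.0428) or FPKM (0.0184 to 0.0264).

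Nkd1 (ENSMUSG00000031661) encodes an inhibitor that binds dishevelled, and it fell in sh-Pfkp. It was counted at 32, 17 and 32 reads in sh-ctrl, 5, 9 and 16 in sh-Pfkp and 31, 26 and 17 in sh-Lin41, or 1.83, 1.09 and 1.75 CPM, 0.263, 0.462 and 0.931 CPM, and 1.56, 1.254 and 0.936 CPM. The 3 sh-Pfkp libraries were the lowest, although the highest of them was close to the lowest sh-Lin41 library. The summed reads gave a ratio to sh-ctrl of 0.342 in sh-Pfkp (95% interval 0.217 to 0.526, counting error only) and of 0.799 in sh-Lin41 (0.575 to 1.11). The edgeR log2 fold change was -1.53 in sh-Pfkp (SE 0.366, adjusted p = 0.000664), -0.32 in sh-Lin41 (SE 0.308, adjusted p = 0.397) and -1.21 between the knockdowns (SE 0.373, adjusted p = 0.00673). The last was lost without sh-Pfkp replicate 1 (adjusted p = 0.062) and on the FPKM scale (0.0553 to 0.103). Against sh-ctrl the call was lost only on unfiltered log2(FPKM + 1) (adjusted p = 0.0504), a scale on which the difference shrank to -0.40.

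Rnf43 (ENSMUSG00000034177), the gene of a membrane ubiquitin ligase that removes frizzled receptors, was the lowest of the 10. Reads per library were 18, 6 and 11 in sh-ctrl, 6, 12 and 9 in sh-Pfkp and 8, 11 and 11 in sh-Lin41. The groups overlapped. The log2 fold change was -0.48 in sh-Pfkp (95% interval -1.38 to 0.417, edgeR adjusted p = 0.364) and -0.41 in sh-Lin41 (-1.28 to 0.471, adjusted p = 0.444), so a fall of 2-fold lay within both intervals and a rise of 2-fold did not. Without sh-ctrl replicate 1, the highest of the control libraries, the differences became -0.04 and 0.03. Between the knockdowns it was -0.07 (95% interval -0.998 to 0.851).

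Sp5 (ENSMUSG00000075304), which encodes a zinc-finger factor and whose start is preceded by the 4 cores shown above, was called lower in sh-Pfkp. Reads per library were 12, 21 and 16 in sh-ctrl, 10, 7 and 10 in sh-Pfkp and 14, 14 and 11 in sh-Lin41, which is 0.687, 1.34 and 0.873 CPM, 0.526, 0.359 and 0.582 CPM, and 0.703, 0.675 and 0.606 CPM. The sh-Pfkp libraries were the 3 lowest, and sh-Lin41 overlapped with sh-ctrl. The log2 fold change in sh-Pfkp was -0.97 (SE 0.388, edgeR adjusted p = 0.0338), and the ratio of summed reads was 0.509 (95% interval 0.306 to 0.831). The call was lost without sh-ctrl replicate 2 (log2 fold change -0.68, adjusted p = 0.205), sh-ctrl replicate 3 (0.0523), sh-Pfkp replicate 1 (0.0585) or sh-Pfkp replicate 2 (0.134) and with DESeq2 (0.117). In sh-Lin41 the log2 fold change was -0.52 (95% interval -1.26 to 0.212, adjusted p = 0.225), and between the knockdowns it was -0.44 (-1.27 to 0.384, adjusted p = 0.367).

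**Figure D4:**
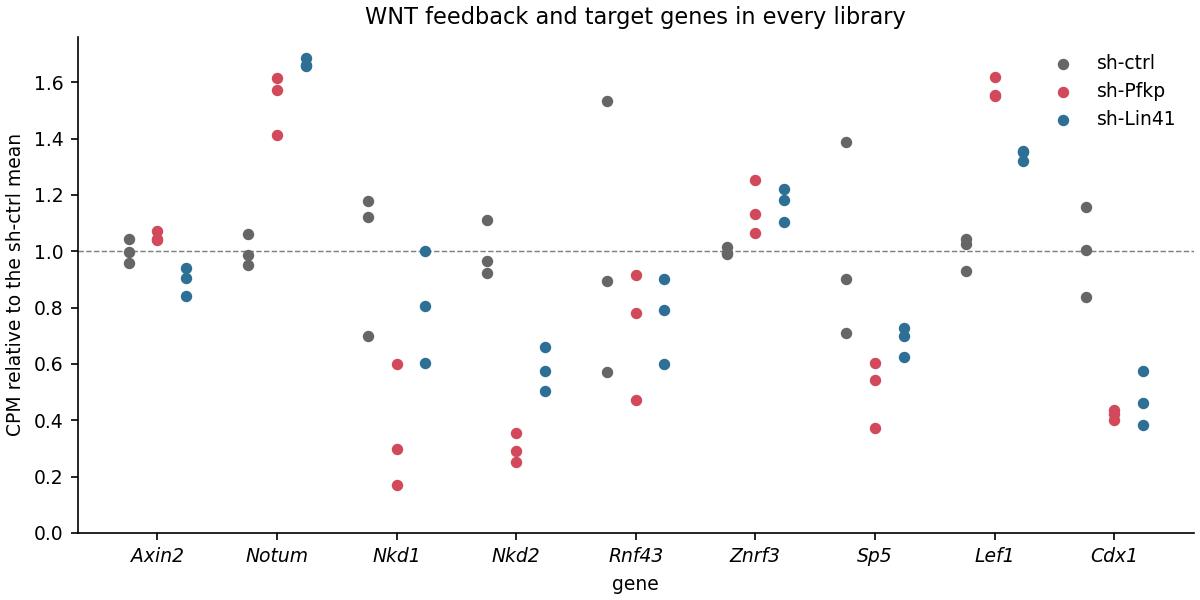
CPM of 9 WNT feedback and target genes in every library, each divided by the mean of the sh-ctrl libraries, on a linear axis from 0. Notum and Lef1 lie above the dashed line at 1 in all knockdown libraries, Cdx1 and Nkd2 lie below it in all of them, and the control libraries of Rnf43 and Sp5 are spread widest.

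The feedback and target genes thus moved in different directions, and other target genes did as well. Nkd2, the close relative of Nkd1, stood at 3.03, 3.64 and 3.16 CPM for sh-ctrl, 0.948, 0.82 and 1.16 CPM for sh-Pfkp and 2.16, 1.88 and 1.65 CPM for sh-Lin41. The 3 groups of Nkd2 did not overlap, and it fell in sh-Pfkp (log2 fold change -1.75, SE 0.231, edgeR adjusted p = 1.19e-07) and in sh-Lin41 (-0.78, SE 0.202, adjusted p = 0.00153). The homeobox gene Cdx1 fell in both (-1.26, SE 0.175, and -1.09, SE 0.169). Znrf3, which encodes a ligase related to RNF43, rose in both (0.20, SE 0.0653, and 0.22, SE 0.0646), with the sh-Pfkp call lost without sh-Pfkp replicate 1 (adjusted p = 0.0899) and on the FPKM scale (0.258 to 0.34), and the sh-Lin41 call on unfiltered log2(FPKM + 1) (0.0698). Of 10 tested genes in a list of other WNT targets, which holds these 3, 3 rose and 5 fell in sh-Pfkp, where 28.3% of all genes rose and 28.3% fell. In sh-Lin41 3 rose and 4 fell, where 26.9% of all genes rose and 27.3% fell. The pathway lists share some genes, which are counted in each. Nkd2 is also among the dishevelled and destruction complex genes below. Likewise Znrf3 is in the R-spondin and LGR axis, and Apcdd1 is among the secreted and membrane inhibitors. The factor gene Sp8 fell in sh-Pfkp (-0.92, SE 0.259) and rose in sh-Lin41 (0.54, SE 0.214), with a direct difference of -1.45 (SE 0.238, adjusted p = 4.38e-06). The Sp8 call in sh-Lin41 was lost when sh-ctrl replicate 2 (0.155), replicate 2 (0.0749) or 3 (0.0918) of sh-Lin41 was left out, with DESeq2 (0.141) and on the FPKM scales (0.0937 to 0.184). Ascl2 fell in both groups (-0.92, SE 0.288, and -1.67, SE 0.314), in sh-Pfkp with a call lost when sh-Pfkp replicate 1 (adjusted p = 0.0525) or sh-ctrl replicate 2 (0.0741) was left out, and Tnfrsf19 fell in sh-Lin41 (-0.80, SE 0.141).

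WNT ligand genes were scarce, since 16 of 19 had under 1 CPM in sh-ctrl and 9 were tested. In sh-Pfkp 1 ligand gene rose and 1 fell, where 28.3% of all genes rose and 28.3% fell. Wnt5a, a ligand known mostly for beta-catenin-independent signalling, had 11, 10 and 13 reads in sh-ctrl and 36, 31 and 33 in sh-Pfkp (log2 fold change 1.44, SE 0.309, edgeR adjusted p = 0.000202), and 10, 16 and 7 in sh-Lin41. Wnt9a fell in sh-Pfkp (-1.34, SE 0.353) and in sh-Lin41 (-1.10, SE 0.338), the latter call lost (adjusted p of 0.0504 and 0.0527) when sh-ctrl replicate 1 or sh-Lin41 replicate 3 was left out. Wnt7b fell in sh-Lin41 (-1.49, SE 0.196). Porcn, whose product attaches the lipid to WNT ligands, fell in sh-Pfkp (-0.63, SE 0.0511) and had a difference of 0.00 (SE 0.0471) in sh-Lin41. Wls, the gene of the ligand transporter, was scarce, with 8, 6 and 8 reads in sh-ctrl, 23, 19 and 20 in sh-Pfkp and 17, 28 and 14 in sh-Lin41. It rose in sh-Pfkp (1.37, SE 0.376) and in sh-Lin41 (1.21, SE 0.381), the last lost without sh-Lin41 replicate 2 (adjusted p = 0.0788).

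All 15 receptor genes were tested, of which 6 rose and 5 fell in sh-Pfkp, where 28.3% of all genes rose and 28.3% fell. In sh-Lin41 7 rose and 3 fell, where 26.9% of all genes rose and 27.3% fell. The frizzled gene Fzd10 rose in both groups (0.81, SE 0.101, and 0.96, SE 0.0987), and Fzd5, which had 110 CPM in control, rose by 0.40 (SE 0.0311) in sh-Lin41 and by 0.09 (SE 0.0322) in sh-Pfkp. The latter call was lost when replicate 2 (adjusted p = 0.0609) or 3 (0.147) of sh-ctrl or sh-Pfkp replicate 2 (0.0695) was left out, with library totals (0.331) or upper quartile scaling (0.23), with DESeq2 (0.0609) and on the FPKM scales (0.515 to 0.559). The co-receptor gene Lrp5 fell in sh-Pfkp (-0.49, SE 0.0583) and had -0.01 (SE 0.0548) in sh-Lin41. Ror1, a receptor of WNT5A, had 4, 8 and 12 reads in sh-ctrl, 38, 48 and 45 in sh-Pfkp and 20, 16 and 20 in sh-Lin41, and rose in sh-Pfkp (2.32, SE 0.323, edgeR adjusted p = 3e-07). It also rose in sh-Lin41 (1.02, SE 0.376, adjusted p = 0.0219), a call lost when sh-ctrl replicate 1 (0.142), replicate 1 (0.0533) or 3 (0.0695) of sh-Lin41 was left out, with DESeq2 (0.0562) and on unfiltered log2(FPKM + 1) (0.0841). In the R-spondin and LGR axis 4 of 8 genes were tested, with 1 rise and 2 falls in sh-Pfkp and 1 of each in sh-Lin41. Of these Lgr6, the gene of an R-spondin receptor, fell in sh-Pfkp (-0.82, SE 0.229), a call lost on the FPKM scales (adjusted p = 0.0727 to 0.108), where the difference was -0.81 with a pseudocount of 0.1 and -0.31 with 1, and Lgr4 fell in sh-Lin41 (-0.16, SE 0.0355).

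Of 10 tested genes listed as secreted and membrane inhibitors 2 rose and 5 fell in sh-Pfkp, where 28.3% of all genes rose and 28.3% fell. In sh-Lin41 1 rose and 3 fell, where 26.9% of all genes rose and 27.3% fell. The glypican gene Gpc3, counted in this list, fell in both, from 47.2 ± 0.176 CPM in sh-ctrl to 23.5 ± 1.04 CPM in sh-Pfkp and 18.8 ± 0.26 CPM in sh-Lin41 (SD, n = 3). Whether its product inhibits WNT signalling in these cells was not tested. Sfrp1, whose product binds WNT ligands, fell in sh-Pfkp (-0.46, SE 0.0525) and rose in sh-Lin41 (0.52, SE 0.0466), and the direct difference was -0.98 (SE 0.0486, edgeR adjusted p = 2.25e-17). Kremen1, the gene of a DKK receptor, fell in both (-0.53, SE 0.0714, and -0.20, SE 0.0683), with the sh-Lin41 call lost without sh-Lin41 replicate 1 (adjusted p = 0.068), with DESeq2 (0.0593) and on unfiltered log2(FPKM + 1) (0.0738).

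Inside the cell the list of dishevelled and destruction complex genes, all 19 tested, was split, with 6 rises and 7 falls in sh-Pfkp and 6 of each in sh-Lin41. The kinase gene Gsk3b rose in sh-Lin41 (0.37, SE 0.0363) and had 0.01 (SE 0.0378) in sh-Pfkp, with a direct difference of -0.36 (SE 0.0357, edgeR adjusted p = 3.69e-10). In both groups Csnk1a1, another kinase gene, rose (0.19, SE 0.021, and 0.10, SE 0.021) and the dishevelled gene Dvl1 fell (-0.48, SE 0.0652, and -0.17, SE 0.0623). The Dvl1 call in sh-Lin41 was lost when sh-ctrl replicate 2 (adjusted p = 0.153), replicate 2 (0.0833) or 3 (0.0593) of sh-Lin41 was left out, with DESeq2 (0.0867) and on the FPKM scales (0.0693 to 0.0972). Among 19 genes for cofactors of TCF and beta-catenin 9 rose and 4 fell in sh-Pfkp, and 9 rose and 5 fell in sh-Lin41. Beside the counts of both lists, 28.3% of all genes rose and 28.3% fell in sh-Pfkp, and 26.9% and 27.3% in sh-Lin41. The co-repressor gene Tle4 (0.48, SE 0.0248, and 0.39, SE 0.0248) and the acetyltransferase gene Crebbp (0.60, SE 0.0425, and 0.69, SE 0.0419) rose in both groups. Bcl9, the gene of a beta-catenin adaptor, fell in sh-Pfkp (-0.38, SE 0.0451) and rose in sh-Lin41 (0.31, SE 0.0415), with a direct difference of -0.69 (SE 0.0427, edgeR adjusted p = 5.1e-15).

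Catenins and cadherins share beta-catenin at cell junctions, and 6 of their genes were tested. In sh-Lin41 5 fell and none rose at adjusted p under 0.05, where 27.3% of all genes fell, and Jup, the gene of plakoglobin, had -0.03 (SE 0.0309, adjusted p = 0.442). In sh-Pfkp 2 rose and 4 fell, where 28.3% of all genes fell, and sh-Pfkp exceeded sh-Lin41 for all 6, where 27.4% of all genes were higher. Cdh1, the gene of E-cadherin, fell from 629.4 ± 12.6 CPM to 564 ± 1.76 CPM with sh-Pfkp and 488.5 ± 10.3 CPM with sh-Lin41 (SD, n = 3), and Ctnna1, the gene of alpha-catenin, from 540 ± 6.31 CPM to 501.7 ± 5.23 and 408 ± 4.72 CPM. The median log2 fold change of the 6 was -0.38 in sh-Lin41, where the median of all genes was 0.0043. Of 5 genes described as repressed by TCF7L1, 3 rose and 2 fell in sh-Pfkp, where 28.3% of all genes rose and 28.3% fell. In sh-Lin41 4 of them rose, where 26.9% of all genes did. Whether the level of Tcf7l1 bears on these genes was not tested. Nanog rose in both (0.18, SE 0.0182, and 0.53, SE 0.0179), as did Tbx3 (0.25, SE 0.0302, and 0.71, SE 0.0289) and Klf2 (0.72, SE 0.0366, and 0.39, SE 0.0375), while Esrrb rose in sh-Lin41 (0.22, SE 0.017). In sh-Pfkp Esrrb had -0.04 (SE 0.0171, edgeR adjusted p = 0.0342), a call lost under 12 of 22 alternatives, among them DESeq2 (0.0973) and the omission of any of 7 libraries: sh-ctrl replicate 1 (0.0919) or 2 (0.167), sh-Pfkp replicate 2 (0.194) or 3 (0.116), or sh-Lin41 replicate 1 (0.0588), 2 (0.0569) or 3 (0.0686).

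**Figure D5:**
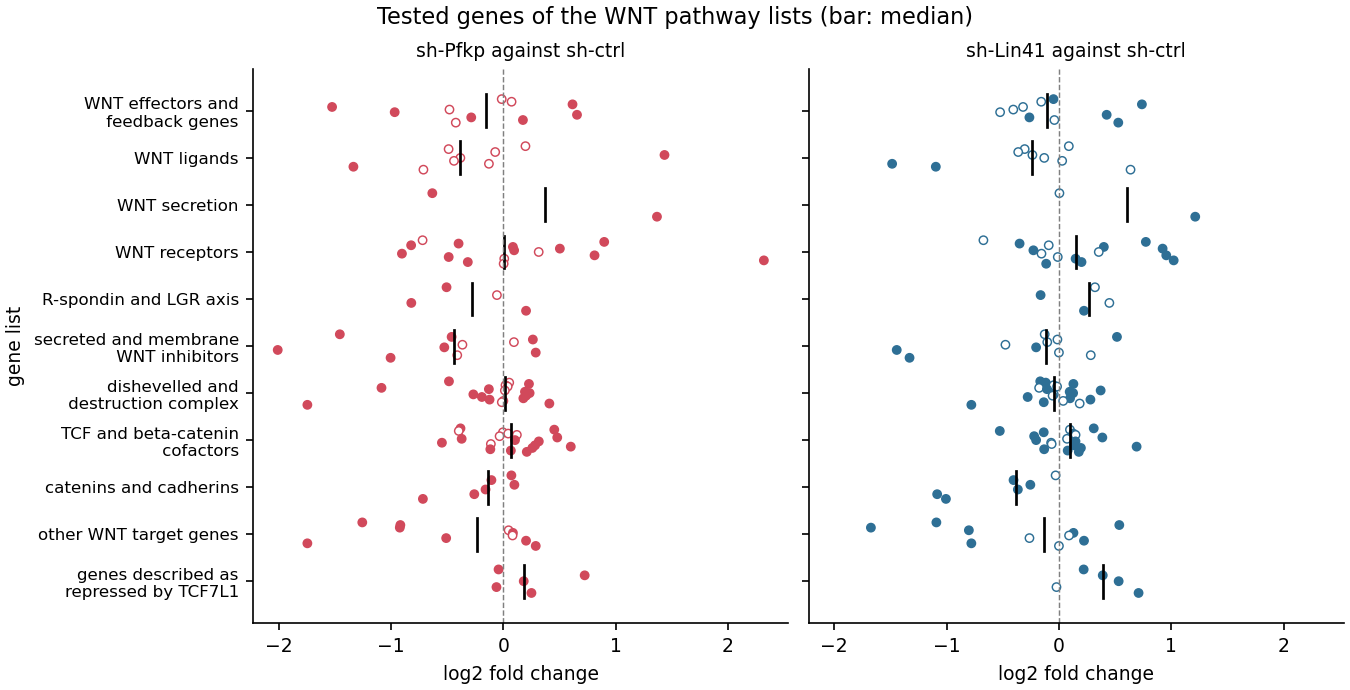
Log2 fold change against sh-ctrl of every tested gene in the 10 WNT pathway lists and of the members, from edgeR. Points are genes, filled where the adjusted p is under 0.05, vertical bars are list medians and the dashed line marks no difference; most lists hold genes on both sides, and in sh-Lin41 the catenins and cadherins lie at or left of the line.

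Genes with a similar pattern over the 9 libraries were sought for Lef1, Notum and Tcf7, the members with the smallest p in edgeR's F test over the 3 groups. Similarity was measured by the smallest root mean square difference of centred log2 CPM. The 8479 candidates had a mean of at least 10 CPM, and symbols made of Gm plus a number or ending in Rik were left out. For Lef1 the closest genes were Clk1 (0.0433), Mest (0.0541) and Dido1 (0.0543). For Notum they were Crebbp (0.0441), Spen (0.0641) and mt-Cytb (0.0682), and for Tcf7 they were Agfg1 (0.0293), Ergic1 (0.0349) and Maoa (0.0368). Over the same libraries the SD of log2 CPM was 0.291 for Lef1, 0.348 for Notum and 0.143 for Tcf7. Crebbp is the sole gene among them that is also in a pathway list.

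The authors' deposited table gives a log2 ratio of group mean FPKM with its own false discovery rate (FDR). In the authors' deposited table Lef1 has 0.595 in sh-Pfkp and 0.423 in sh-Lin41, Notum 0.529 and 0.73, and Tcf7 -0.335 and -0.247. For Sp5 in sh-Pfkp the authors' deposited table has -1.02 with an FDR of 0.108, and for Tcf7l2 in sh-Lin41 0.423 with an FDR of 0.125. Against sh-ctrl these were the members' calls that DESeq2 did not make. For Nkd1 in sh-Pfkp the authors' deposited table has -1.26 with an FDR of 0.00268, and for Ctnnb1 in sh-Lin41 -0.0494 with an FDR of 0.046.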

How the data were processed

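RNA-seq libraries (3 groups of 3, day 6) were made from Trizol total RNA with a NEBNext Ultra RNA kit, per the labels' protocols. Tools listed by the submitters' processing notes are RSEM, HISAT2, StringTie 1.3.1, Bowtie2 2.2.8 and fastp 0.18.0. No genome build, strand setting or p-value tool is given in the sources used here. Per the file headers the authors deposited read counts and FPKM per library, and a log2 ratio, p-value and FDR per comparison. The counts are whole numbers but may be rounded estimated counts, since RSEM is named. The control values are the same in both tables, and 1 fit held all 9 libraries. Without a known strand setting, reads of 5 members (Axin2, Ctnnb1, Lef1, Notum and Tcf7l1) cannot be told apart from those of genes that overlap their exons on the other strand in GENCODE M21.

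Counts were tested with edgeR 4.0.16 in R 4.3.3 (filterByExpr, TMM, quasi-likelihood fit, 6 residual degrees of freedom, Benjamini-Hochberg over 13158 genes, threshold 0.05), after the steps were tested on simulated data. Log2 fold changes and their standard errors (SE, the fold change over the root of the F statistic) come from this fit, and the biological coefficient of variation was 0.0213. Ratios of summed reads have exact 95% intervals for counting error only. Replicate pairs had a median chi-square of 0.661 to 0.769 over genes, with library totals as the only scaling, against 0.455 expected from counting noise. That excess does not show that the libraries are independent. Each library was counted as 1 replicate. Nothing in the labels says that libraries of a group were separate cultures. The spread behind each p-value is that between these libraries and may be technical.

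The members, gene lists and rules were chosen with earlier results of these data known. All 10 members were reported; of each pathway list the rule took up to 3 called genes per comparison with the smallest adjusted p and at least 1 CPM in a group, and the text gives examples of these. Col1a2, Vim, Pdgfrb, Thy1, Twist1, Zfp42, Tdgf1, Eomes and Evx1, from marker lists, and Jup were chosen after their values were seen. Alternatives were other scalings, filters and fits of 6 libraries, DESeq2 1.42.0, limma 3.58.1 (voom, and trend on log2 FPKM plus 1 or 0.1), a replicate block and the omission of each library. A 2-fold minimum was applied only to the counts of genes and members called and is not among the 22 alternatives. Promoter windows are RefSeq's (GRCm38.p6).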

Additional observations from a re-analysis of the deposited data

How the results depend on the processing

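Of 642 values of the 10 members under 22 alternatives, 583 kept their direction and their side of the threshold, 38 lost the call, 10 gained one and 11, all without a call, reversed. Against sh-ctrl, Lef1, Notum and Tcf7 in both knockdowns and Tcf7l1 in sh-Pfkp passed the test under all 22. With a 2-fold minimum, which is not among the 22, the genes called were 857 in sh-Pfkp, 560 in sh-Lin41 and 591 between the knockdowns, and the members called were 1, 0 and 1. In the 3 fits on log2 FPKM (pseudocount 1, pseudocount 0.1, and pseudocount 1 with no filter) 3 members were called in sh-Lin41 and 3 between the knockdowns. The number of all genes called in those fits is not given here, so these member counts are not compared with it. Leaving out 1 library gave 5 to 6 members in sh-Pfkp, 3 to 5 in sh-Lin41 (3 without sh-ctrl replicate 3 or sh-Lin41 replicate 1) and 3 to 6 between the knockdowns (3 without sh-Pfkp replicate 1), with 6876 to 7550, 6447 to 7176 and 6716 to 7299 genes. The Ctnnb1 difference between the knockdowns (0.03) became -0.01195 with library totals, -0.003295 with upper quartile scaling and -0.005497, -0.005524 and -0.005497 on the FPKM scales, and that in sh-Pfkp (-0.01) became 0.0004047 without sh-Pfkp replicate 2, with a range of -0.01994 to 0.0004047 when 1 library was left out. Rnf43 with 1 library left out ranged from -0.6631 to 0.02904 in sh-Lin41, and in sh-Pfkp from -0.7309 to -0.03841, the highest of both without sh-ctrl replicate 1. Between the knockdowns it ranged from -0.2872 to 0.1644, being 0.1644 without sh-Pfkp replicate 1 and 0.0563 without sh-Lin41 replicate 3, and was 0.01148 on unfiltered log2(FPKM + 1). Tcf7 between the knockdowns ranged from -0.0516 to 0.01656, the highest without sh-Lin41 replicate 3. The cause was not tested. Library totals in place of TMM changed the genes called in sh-Pfkp from 3721 higher and 3730 lower to 3018 and 4477.

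Replicate numbers are shared by the groups, but same-numbered libraries deviated together little or not at all. Across 13158 genes r was 7.26e-05, 0.125 and 0.0887 for sh-Pfkp and sh-ctrl, and -0.083 to 0.0101 for the other pairs of groups. Across 6027 genes with a mean of at least 500 counts r was 0.113, 0.0557 and 0.0533 for sh-Lin41 and sh-ctrl. For the other pairs of groups it was -0.101 to -0.00214 there. Same-numbered libraries were therefore not taken as pairs. With the replicate block over 9 libraries 6, 5 and 5 members were called, beside 7435, 7109 and 7196 of the 13158 genes tested. Over the 6 libraries of the groups compared the block gave 5, 5 and 5 members, beside 7249 of 12876, 7274 of 12972 and 7081 of 12999 genes. The member call lost was that of Sp5 in sh-Pfkp (edgeR adjusted p = 0.0546). Depth limits Rnf43, Sp5, Nkd1 and Tcf7l2, which had 27 to 180 reads per group.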
